A study of Bombus lucorum with 81 samples.

Results

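DNA-binding protein inhibitor ID-2 (LOC100642250) is 1 of the 10581 genes in the count table of 81 Bombus lucorum workers from the German Alps. It was chosen by its difference between bees of grazed and ungrazed grassland, so its values in that contrast are given as a description, without a test, and nothing is supported with them. Foraging workers were netted in the summer of 2019 at 16 sites in 3 elevational belts. The 30 lowland bees came from 6 sites between 641 and 987 m, the 25 mid-elevation bees from 5 sites between 1140 and 1423 m, and the 26 highland bees from 5 sites between 1579 and 1930 m. Livestock grazed 3 lowland sites with 15 bees, all 5 mid-elevation sites and 1 highland site with 5 bees, and the other 3 lowland sites with 15 bees and 4 highland sites with 21 bees were ungrazed. Among the lowland bees, 17 were netted on warm occasions (21 to 23 °C in whole degrees) and 13 on cool ones (15 to 18 °C). Every library came from the thorax and abdomen of 1 free-living bee whose head and gut had been taken out in the field. The colony and age of a bee were not given in the sources used here, and bees of a site may share a colony.

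ID proteins are helix-loop-helix proteins without the basic stretch that touches DNA. They pair with basic helix-loop-helix (bHLH) factors, above all the E proteins, and the pair cannot bind DNA, so that ID proteins act as brakes on bHLH-driven differentiation. In Drosophila the family is represented by extramacrochaetae, which holds back sensory organ and muscle fate, and in vertebrates ID genes are known as direct targets of bone morphogenetic protein (BMP) signalling. In these libraries RNA of all tissues of thorax and abdomen was mixed, and fewer cells of a type cannot be told apart from less RNA per cell.

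In the B. terrestris assembly Bter_1.0, to which the reads had been aligned, LOC100642250 runs from base 13556062 to base 13558310 on the plus strand of a sequence that the count table names only by accession. Its combined exons measure 2249 bases and fill its whole span, so that the annotation used for counting gives it no intron. No gene of the table lies in the 64835 bases before it, a gap longer than 97.6% of the 10184 gaps between neighbouring genes. The next gene after it, LOC100651719, is on the minus strand and ends 1689 bases away, so no counted gene overlaps ID-2.

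ID-2 drew 645 to 10256 reads in each bee (median 3331), out of library totals of 15700759 to 33784279 counted reads (median 26082949). Counting error alone was therefore at most 3.94% of a bee's value, far below the differences between bees. RNA quality, for which the paper gives a wide range over the samples, is not part of this error and was not examined per bee. Levels are given as CPM, the reads of a gene relative to the TMM-scaled total of its library. ID-2 averaged 159.98 ± 97.3 CPM (SD, n = 81), with a lowest bee at 32.8, a median of 139 and a highest bee at 491 CPM, a range of 14.9-fold. Per kilobase of exon its mean level was 71.1 CPM, higher than that of 88.6% of the 9475 genes past the filter on low counts. The SD of its log2 CPM over the bees was 0.87, against a median of 0.47 over all genes. It exceeded the SD of 86.7% of the 946 genes within 5 percentiles of its own level. This spread contains the grazing contrast on which the gene was selected, with 20.5% of the variance between grazed and ungrazed bees.

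The means of the 9 grazed sites lay between 90.02 CPM at H4 and 139 CPM at Wma2. In log2 CPM these site means were the more uniform, with an SD of 0.23 against 0.54 over the 7 ungrazed sites. The SD of log2 CPM over single bees differed less, at 0.72 for grazed and 0.85 for ungrazed sites. Over the 45 grazed-site bees ID-2 averaged 118 ± 53.1 CPM (SD), with 32.8 CPM in the lowest, 111 in the median and 231 in the highest bee. The 36 bees of the 7 ungrazed sites averaged 213 ± 114 CPM (SD), with 59.4 CPM in the lowest, 182 in the median and 491 in the highest bee. The 2 groups overlapped: 7 grazed-site bees lay above the ungrazed median and 8 ungrazed-site bees below the grazed median. At the upper end, 16 ungrazed-site bees exceeded every grazed-site bee. Of the 21 bees above 200 CPM, 17 came from ungrazed sites, and of the 29 bees below 100 CPM, 21 came from grazed sites. The log2 fold change, grazed minus ungrazed, was -0.85 (standard error 0.16), and 0.181% of the 9385 genes tested were called in this contrast.

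The same values can be split by belt and by transect, again as a description of the bees on which the gene was chosen. In the lowland, 114 ± 51.8 CPM (SD, n = 15) at grazed sites stood beside 213 ± 106 CPM (SD, n = 15) at ungrazed sites, and the log2 fold change within the lowland was -0.87 (standard error 0.25). In the highland, the 5 bees of the only grazed site averaged 121 ± 59.8 CPM (SD) and the 21 ungrazed-site bees 212 ± 122 CPM (SD), a log2 fold change of -0.76 (standard error 0.43). Along the Hintersee transect the values were 99.5 ± 49.5 CPM (SD, n = 10) grazed and 189 ± 106 CPM (SD, n = 14) ungrazed, and along the Watzmann transect 123 ± 53.6 CPM (SD, n = 35) and 259 ± 147 CPM (SD, n = 7). These transect splits are largely splits by belt as well, since the ungrazed sites of both transects were all highland sites, and the grazed ones lowland or mid-elevation sites except Wmb4. The valley transect had ungrazed lowland sites only.

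**Figure D1:**
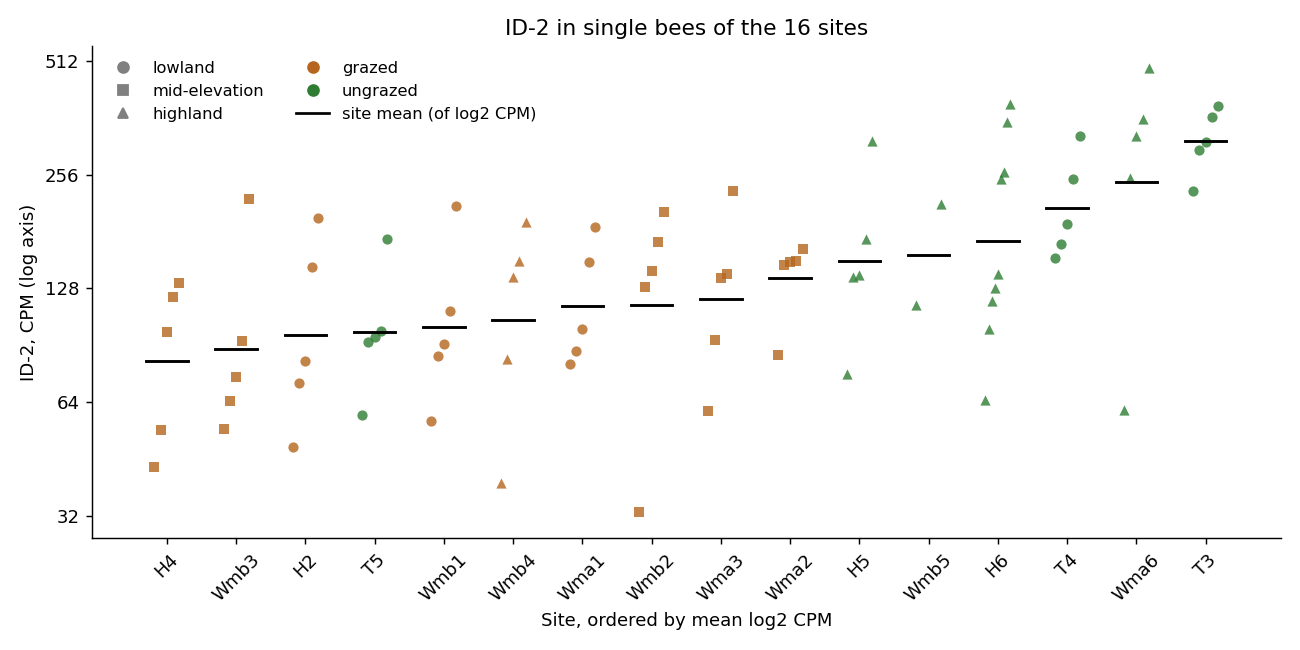
CPM of ID-2 (log axis) in each of the 81 bees at the 16 sites, ordered by the mean of log2 CPM (black bars), with belts as symbols and grazing as colours. The 6 highest sites are ungrazed, T5 is an ungrazed site among the grazed ones, and single bees of neighbouring sites overlap throughout.

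The single bees show how broad each site was. At the grazed lowland sites, the 5 bees of H2 had 48.8, 72.1, 82.3, 146 and 197 CPM. Those of Wmb1 had 57.0, 84.8, 91.5, 111 and 212 CPM. Those of Wma1 had 80.9, 87.5, 100.3, 151 and 186 CPM. In all 3 of these sites the lower 3 or 4 bees lay at or under 111 CPM and 1 or 2 bees stood higher. At the mid-elevation sites, H4 had 43.2, 54.1, 98.3, 122 and 133 CPM. Wmb3 had 54.4, 64.6, 74.5, 93.1 and 220.4 CPM. Wmb2 had 32.8, 129, 142, 170.2 and 204 CPM, including the lowest bee of the study. The lowest and highest bees of Wmb2 thus spanned nearly the whole range of the grazed sites. Wma3 had 60.9, 93.4, 136, 139.8 and 231 CPM, and Wma2 had 85.1, 148, 151, 151 and 162 CPM. At Wma2, 4 of the 5 bees lay within 148 to 162 CPM, whereas the grazed highland site Wmb4 was spread from 39.2 through 83.2, 137 and 151 to 192 CPM.

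Among the ungrazed lowland sites, T3 had 231, 296, 311, 363 and 388 CPM, T4 had 154, 168, 189.9, 249 and 324 CPM, and T5 had 59.4, 92.6, 95.4, 98.9 and 173 CPM. T3 and T5 did not overlap, although both were ungrazed and lay at 656 and 746 m. In the ungrazed highland, the 5 bees of H5 had 76.0, 137, 139, 173 and 314 CPM. The 9 bees of H6 ran from 65.1 CPM over a median of 139.8 to 392 CPM, and the 2 bees of Wmb5 had 116 and 213 CPM. Wma6, the highest site at 1930 m, had 61.1, 250.3, 324, 359.9 and 491 CPM, the last of which is the highest bee of the study.

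By the mean of log2 CPM the sites ran from H4 (6.36) and Wmb3 (6.47) at the bottom to Wma6 (7.93) and T3 (8.29) at the top. At the upper end, 6 of the 7 ungrazed sites stood above every grazed site, and T5 (6.61) stood between H2 and Wmb1 near the bottom. No step between neighbours in this order was distinct: the largest was 0.36 on the log2 scale, and no step reached more than 0.42 of the pooled SD of the bees of the 2 sites. Sites accounted for 38.4% of the variance of ID-2 over the bees, against a median of 27.2% over genes, but this share contains the grazing contrast on which the gene was selected. Within belt and grazing class, sites took 22.5% of the remaining variance, close to the median gene at 20.3%. The edgeR quasi-likelihood test of all differences between sites of the same class, which does not use the grazing contrast, gave F = 1.79 and an adjusted p of 0.18 for ID-2, and 10.3% of the 9475 genes tested had an adjusted p under 0.05. Without T5 the F fell to 0.87 (adjusted p = 0.65) and without T3 the adjusted p was 0.43. ID-2 thus was not called as varying between like sites in this test.

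The belts were compared in 1 edgeR model over all bees. Highland bees averaged 195 ± 118 CPM (SD, n = 26), lowland bees 163 ± 96.1 CPM (SD, n = 30) and mid-elevation bees 119.8 ± 54.7 CPM (SD, n = 25), and the ranges overlapped, with medians of 145, 148 and 129 CPM. None of the 3 contrasts of ID-2 was called. Highland minus lowland was a log2 fold change of 0.25 (standard error 0.22, edgeR adjusted p = 0.57), where 0.686% of the genes tested were called. Highland minus mid-elevation was 0.70 (standard error 0.23, edgeR adjusted p = 0.12), with 0.211% of genes called, and mid-elevation minus lowland was -0.45 (standard error 0.22, edgeR adjusted p = 0.31), with 0.369% called.

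Belt and grazing are unevenly combined, since every mid-elevation site was grazed. With grazing as a covariate the same 3 contrasts were 0.02 (standard error 0.21), -0.04 (standard error 0.27) and 0.06 (standard error 0.23), with edgeR adjusted p-values of 0.97, 0.96 and 0.91. The other contrasts compare belts inside 1 grazing class. Among ungrazed sites, highland minus lowland was -0.01 (standard error 0.27, edgeR adjusted p = 0.99), beside 0.728% of genes called, from means of 212 and 213 CPM. With T3 left out this value was 0.41 and with T5 left out -0.34, neither called. Among grazed sites, mid-elevation minus lowland was 0.08 (standard error 0.22, edgeR adjusted p = 0.89), beside 0.138% of genes called, from means of 119.8 and 114 CPM. These standard errors take bees as independent, and they do not exclude differences larger than the errors themselves in either direction. In limma with site as a random block the standard errors were 0.34 at ungrazed and 0.27 at grazed sites. With counts summed per site they were 0.37 and 0.16.

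**Figure D2:**
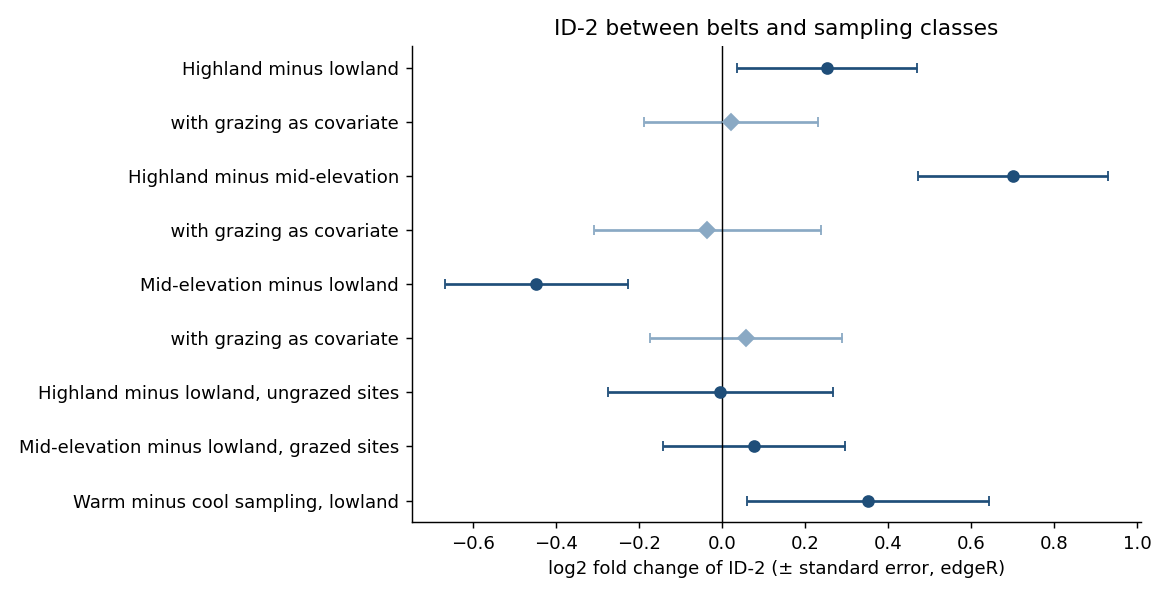
Log2 fold change of ID-2 (horizontal axis) between belts and sampling classes, with bars of 1 standard error from edgeR, dark points without and pale diamonds with grazing as a covariate. The largest value is 0.70 for highland minus mid-elevation and becomes -0.04 with grazing in the model, and none of the contrasts shown was called.

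With the site as the unit, exact two-sided permutation tests over site means of log2 CPM gave the same order. Highland sites averaged 7.32 ± 0.43 (SD, n = 5), lowland sites 7.12 ± 0.71 (SD, n = 6) and mid-elevation sites 6.74 ± 0.31 (SD, n = 5). The difference of 0.59 between highland and mid-elevation sites had an exact p of 0.0397, or 0.24 after adjustment over the 6 tests of this family. Every mid-elevation site was grazed and 4 of the 5 highland sites were ungrazed, so this difference shares the grazing values on which the gene was chosen. The other 5 had adjusted p-values of 0.91. The smallest p that the splits allow is 0.00397 for 5 against 5 sites and 0.0286 for 4 against 3.

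Altitude had a Pearson r of 0.04 and a Spearman rho of 0.14 with the site means over the 16 sites, and r = -0.03 after the 2 sites farthest from its median were left out. For mean annual temperature r and rho were -0.08 and -0.14, and r = 0.23 without the 2 farthest sites. Over the 7 ungrazed sites the r of altitude went from -0.05 to 0.90 and that of mean annual temperature from 0.06 to -0.86 when the 2 farthest sites were left out, so that these values rest on single sites. For plant richness r and rho were -0.33 and -0.23, with r = 0.01 after the 2 sites farthest from its median were left out. Plant cover had r = -0.40 and rho = -0.42, and -0.31 without the 2 farthest sites. Over the 7 ungrazed sites plant cover had r = -0.85, where T5 combined the highest cover of all 16 sites (19.21) with the lowest ungrazed mean. Without T5 and T3, the 2 sites farthest from the median cover, it was -0.54. Over the 9 grazed sites it was -0.02. These correlations describe sites whose bees share place and possibly colony, and were not tested.

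Sampling temperature was compared within the lowland. Bees netted in the warm averaged 181 ± 105 CPM (SD, n = 17), with 48.8, 154 and 388 CPM as lowest, median and highest value. Bees netted in the cool averaged 139.8 ± 80.9 CPM (SD, n = 13), with 57.0, 98.9 and 324 CPM. The log2 fold change, warm minus cool, was 0.35 (standard error 0.29, edgeR adjusted p = 0.46) and was not called, although 4.06% of all genes were called in this contrast. With temperature in whole degrees the slope was 0.08 log2 units per degree (standard error 0.05, edgeR adjusted p = 0.30). The exact permutation test over 4 warm and 3 cool units of site and class gave a difference of 0.23 with p = 0.69. T4 entered this test on both sides, so its warm and cool units share a site and are not independent. The slope with which log2 CPM rose over genes with the log2 length of their exons averaged 0.281 in warm and 0.336 in cool bees. With this slope as a covariate, warm minus cool was 0.02 (standard error 0.30, edgeR adjusted p = 0.98), and its part in the value was not tested further.

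The contrast rested on single sites. Without T3, where all bees were warm and high, the log2 fold change turned to -0.16. At T4, the only site with bees of both classes, the 2 warm bees had 154 and 189.9 CPM and the 3 cool bees 168, 249 and 324 CPM. At the other lowland sites sampling class and site cannot be told apart. In fits chosen after the data were seen, warm minus cool was 0.79 (standard error 0.32, edgeR adjusted p = 0.15) in the 15 ungrazed lowland bees and 0.04 (standard error 0.34, edgeR adjusted p = 0.96) in the 15 grazed ones. The difference between the 2 was 0.76 (standard error 0.48) and was not called (edgeR adjusted p = 0.34), in a contrast where 2.71% of genes were called.

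**Figure D3:**
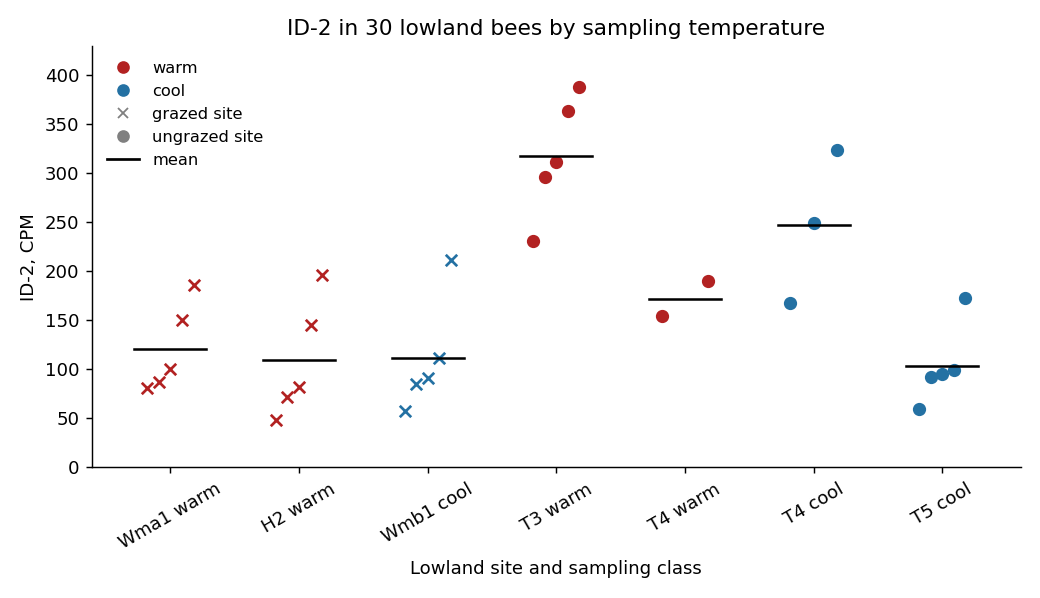
CPM of ID-2 in the 30 lowland bees by site and sampling class, with crosses for grazed and filled circles for ungrazed sites, red for warm and blue for cool sampling, and a black bar at each mean. The T3 bees lie between 231 and 388 CPM, above all bees of T5 (59.4 to 173 CPM), and the 3 cool bees of T4 (mean 247 CPM) lie around and above its 2 warm bees (mean 172 CPM).

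Bees with a high score of gut-type transcripts had more ID-2 on average. The gut had been removed, yet transcripts named as peritrophins (proteins of the lining of the midgut) and chymotrypsins (digestive proteases) varied strongly between bees. A score of 7 such genes, the mean of their centred log2 CPM, split the bees into 44 above and 37 below 0, with only 2 bees within 1 unit of 0. Bees above 0 averaged 196 ± 106 CPM of ID-2 (SD, n = 44) and bees below 0 averaged 118 ± 64.3 CPM (SD, n = 37). The split ran in the same direction within grazing classes. Grazed-site bees had 137 ± 52.5 CPM (SD, n = 23) above 0 and 97.8 ± 46.9 CPM (SD, n = 22) below. Ungrazed-site bees had 259.7 ± 114 CPM (SD, n = 21) above 0 and 147 ± 76.3 CPM (SD, n = 15) below. In all 5 combinations of belt and grazing the mean of ID-2 was higher in the bees above 0, with overlapping bees in each. The Pearson correlation of the score with log2 CPM of ID-2 was 0.40 over the grazed-site and 0.48 over the ungrazed-site bees, which describes libraries that share both measures and was not tested. Members of the score differed. Over all bees the peritrophins (LOC100642795, LOC100642915, LOC100643150) and chymotrypsin-1 (LOC100648122) had r of 0.38 to 0.45 with ID-2. Chymotrypsin-1-like (LOC100648235) and the chymotrypsin-2 entries (LOC100649610, LOC105665786) had r of only 0.005 to 0.011.

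The share of bees with a score above 0 was uneven over the groups: 23 of 45 grazed-site and 21 of 36 ungrazed-site bees, 18 of 26 highland, 14 of 25 mid-elevation and 12 of 30 lowland bees, and 10 of 17 warm against 2 of 13 cool bees. None of the 13 gut markers by name was at 0 in every bee, and their summed level ran from 24.5 CPM over a median of 4047 to 63884 CPM in grazed-site bees and from 40.4 over 30303 to 90689 CPM in ungrazed-site bees. With the score in the model, the grazing value was -0.80 (standard error 0.15), and highland minus lowland among ungrazed sites moved from -0.01 to -0.58 (standard error 0.27, edgeR adjusted p = 0.25). Warm minus cool moved from 0.35 to 0.05 (standard error 0.32, edgeR adjusted p = 0.94). The part of gut-type transcripts in the values of ID-2 was not tested beyond this covariate.

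**Figure D4:**
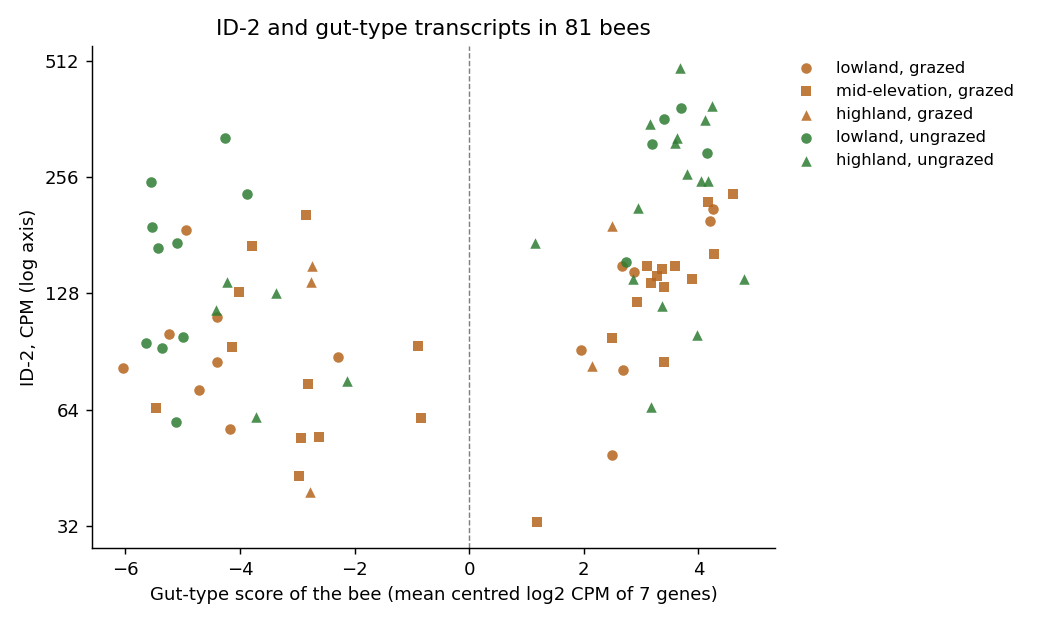
CPM of ID-2 (log axis) against the gut-type score of each of the 81 bees, with belts as symbols and grazing as colours and a dashed line at 0. The bees fall into a group below and a group above 0, and ID-2 is on average higher on the right, at 196 against 118 CPM, in grazed-site and ungrazed-site bees alike.

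Of 12 flight muscle, 8 fat body, 1 haemocyte, 2 germline and 3 nervous system genes tested by name, 0 were called in any of the 7 contrasts of grazing, belt and sampling temperature. Since 0.138% to 4.06% of all genes were called in these contrasts, a count of 0 in lists of this size lies near the background and is no result about these tissues. The flight muscle markers had median log2 fold changes of 0.94 for highland minus lowland at ungrazed sites, -0.98 for mid-elevation minus lowland at grazed sites and -0.80 for warm minus cool, beside 0.03, 0.01 and -0.003 over all genes. Of the 13 flight muscle genes found by name, 10 are named only in tables of regulated genes of the same study. That list was thus partly drawn from these data, and its medians are no independent result. Likewise 2 of the 8 fat body, 6 of the 13 gut and 1 of the 3 nervous system genes are named only there. Correlations of the flight muscle markers with ID-2 ran from -0.31 to 0.57. The latter was for LOC100643023 (32.6 CPM), named for titin, the giant elastic protein of the sarcomere, and picked out after its values were seen. All other tested members had a negative r, from -0.31 for titin homolog (LOC105666838) to -0.01 for another titin entry (LOC105665841, 836 CPM). The part of muscle transcripts in the values of ID-2 was not tested. The 2 most abundant members of each list per kilobase ran from high levels for muscle LIM protein Mlp84B (LOC100646273, 1156 CPM) and troponin C (LOC105666319, 714 CPM) of the contractile apparatus, and for acyl-CoA delta-9 desaturase (npve, 2466 CPM) and fatty acid synthase (LOC100652317, 2245 CPM) of lipid metabolism, to low levels for complexin (LOC100647316, 32.8 CPM) and synaptotagmin-7 (LOC100647956, 22.8 CPM) of nerve terminals. The germline genes tudor (LOC100644474) and vasa (LOC100645309) had 78.2 and 57.8 CPM, and peroxidasin (LOC100643921), the only haemocyte gene, had 3.49 CPM. Muscle and lipid metabolism transcripts were thus abundant, beside the peritrophins LOC100643150 (6594 CPM) and LOC100642915 (3889 CPM) of the removed gut. Within the fat body list, hexamerin (LOC100650380) had 332 CPM, vitellogenin (LOC100649251) 29.3 and vitellogenin-like (LOC100643258) 10.2 CPM. Since the most abundant members were taken, these levels are no test of the labelled tissue. One gut marker, trypsin 3A1 (LOC100644527), which was picked out after its values were seen, was the only marker called, in grazing and over all bees in highland against lowland and against mid-elevation. Among ungrazed sites its highland minus lowland value was 3.06 and was not called (edgeR adjusted p = 0.051), and limma with site as a random block called 0 genes in every contrast.

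Of the pathways in which ID proteins act, 18 genes could be found by name, of which 7 are named only in tables of regulated genes of the same study. No gene at hand was named as daughterless, the Drosophila E protein. Among the bHLH factors, sterol regulatory element-binding protein 1 (LOC100652148), a regulator of lipid synthesis, had 84.6 CPM per kilobase and microphthalmia-associated transcription factor (LOC100645182) 55.1, near the 71.1 CPM per kilobase of ID-2. Myogenic-determination protein (LOC100642478), a bHLH factor of muscle fate, had 7.82 CPM per kilobase. In every contrast 0 of the 4 or 5 bHLH factors tested were called, near the background of 0.138% to 4.06% of all genes for so short a list. Their median log2 fold change for grazing was -0.0004 beside 0.003 over all genes. One of them, enhancer of split mbeta protein-like (LOC100648070), named for a repressor that acts downstream of Notch in Drosophila and picked out after its values were seen, had a log2 fold change for grazing of 0.86 (standard error 0.23) and was not called (edgeR adjusted p = 0.065). Of the bHLH-PAS factors, single-minded homolog 2 (LOC100648501) and neuronal PAS domain-containing protein 4 (LOC100647866) had 1.21 and 0.41 CPM per kilobase, and 0 of 2 were called. Correlations of log2 CPM with ID-2 over the 81 bees lay between -0.23 and 0.02 for these 2 lists. The exception was 0.46 for achaete-scute complex protein T3-like (LOC100647493), which at 0.23 CPM rests on few reads.

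The BMP and TGF-beta list held 10 genes. Its ligands were bone morphogenetic protein 2-A (LOC100643641), bone morphogenetic protein 4 (LOC105666762), protein 60A (LOC100650311) and growth/differentiation factor 8 (LOC100645433), with 9.06, 11.5, 9.46 and 10.7 CPM per kilobase. The receptors bone morphogenetic protein receptor type-2 (LOC100647132) and activin receptor type-2B (LOC100644052) had 22.7 and 12.8 CPM per kilobase. BMP-binding endothelial regulator protein (LOC100652150), an extracellular BMP-binding protein known in Drosophila as crossveinless 2, was by far the most abundant at 2193 CPM per kilobase. Smad nuclear-interacting protein 1 (LOC100647714) had 14.8. Correlations of the 10 genes with ID-2 lay between -0.22 and 0.21. For grazing and the belts 0 of 10 were called, where 0.138% to 0.728% of all genes were, and the median log2 fold change for grazing was 0.03.

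For sampling temperature 1 of the 10 was called, beside 4.06% of all genes. Activin receptor type-2B was higher in warm bees, with 39.7 ± 10.7 CPM (SD, n = 17; lowest, median and highest 12.4, 38.8 and 54.3) against 27.2 ± 6.99 CPM (SD, n = 13; 11.9, 27.8 and 40.1) in cool bees, a log2 fold change of 0.54 (standard error 0.16, edgeR adjusted p = 0.043). The only Notch pathway gene, neurogenic locus notch homolog protein 1 (LOC100648308), a receptor, was lower in warm bees, at 18.7 ± 7.87 CPM (SD, n = 17; 11.9, 15.7 and 42.5) against 34.2 ± 25.5 CPM (SD, n = 13; 14.6, 28.7 and 115), a log2 fold change of -0.90 (standard error 0.24, edgeR adjusted p = 0.030). The ranges overlapped in both genes, and both calls were lost with site as a random block (adjusted p = 0.22 and 0.20) and with counts summed per site (0.17 and 0.19). The notch gene and 3 of the 10 BMP and TGF-beta genes are named only in tables of regulated genes of the same study. The call of the notch gene is therefore not independent of how that gene came to be listed. ID-2 itself was not called in this contrast.

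The genes whose log2 CPM ran most closely with ID-2 over the 81 bees were, among 9384 candidates, LOC100648109 (Pearson r = 0.76, mean 661 CPM), LOC100642669, an uncharacterized protein (r = 0.71, 135 CPM), LOC100643472 (r = 0.70, 173 CPM), vanin-like protein 1 (LOC100647835, r = 0.70, 229 CPM) and LOC100648078 (r = 0.68, 28.6 CPM). Vanins are enzymes that cleave pantetheine in the turnover of coenzyme A. Only 2 of the 5 have a description in the tables at hand. After centring each site the r of these genes was still 0.71, 0.72, 0.69, 0.66 and 0.62, so that the likeness was also present among bees of the same site. Their own correlation with the gut-type score was 0.59, 0.71, 0.51, 0.66 and 0.33. In the grazing contrast 0 of the 5 were called, beside 0.181% of all genes, with log2 fold changes from -0.58 for vanin-like protein 1 to -0.20 for LOC100648078, and 0 were called for any belt or sampling temperature, where the background reached 4.06%.

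At the other end, the lowest r were -0.56 for LOC100649293 and for LOC100649159, -0.53 for LOC100647652 and for LOC105666825, and -0.53 for LOC100648863, all at mean levels between 3.44 and 22.8 CPM and without a description at hand. After centring by site they weakened to between -0.46 and -0.32. Among strong correlations positive ones were the more frequent: 367 genes had an r of at least 0.5 with ID-2 and 13 an r of -0.5 or less. The median r over all candidates was -0.03. Both genes of each correlation come from the same libraries and share their depth, and these correlations were not tested.

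**Figure D5:**
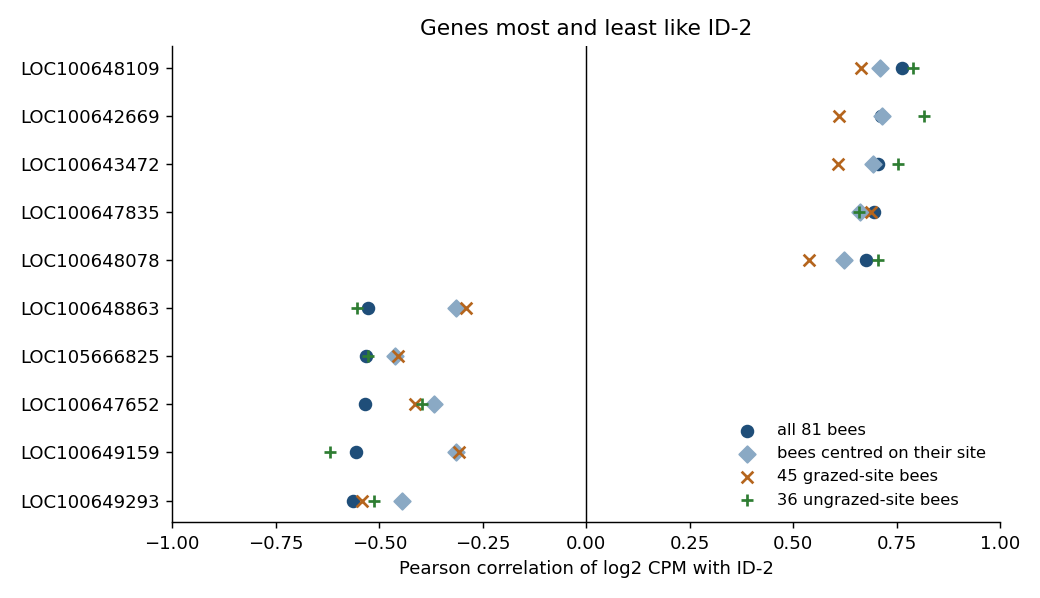
Pearson correlation with ID-2 of the 5 genes with the highest and the 5 with the lowest value over 81 bees (dark circles), beside the value after centring each site (pale diamonds) and within the grazed-site and ungrazed-site bees. The 5 positive genes stay at 0.62 or more after centring, and the 5 negative genes come closer to 0.

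The nearest genes on the assembly were less alike. Before ID-2, LOC100651487 (0.69 CPM) had r = 0.28 with it and LOC100651370 (20.3 CPM) r = 0.17. After it, LOC100651719 (173 CPM) had r = 0.14, whereas LOC100652163 (68.4 CPM), which begins 6698 bases away on the same strand, had r = 0.61 and ranked 42nd of the candidates. For grazing, the log2 fold changes of these 4 genes were -0.46, 0.10, 0.02 and -0.20, and none was called in any contrast. Genes farther off were looked at after their values were seen. Breast cancer anti-estrogen resistance protein 1 (LOC100651250), an adaptor of cell adhesion signalling that ends 88516 bases before ID-2, had r = 0.67 and rank 7. LOC100652042 (65.8 CPM), 20289 bases after ID-2, had r = 0.58 and rank 107. LOC100651130, LOC100651602 and LOC110119455, also farther off, had r of -0.14, -0.13 and 0.08.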

How the data were processed

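The authors trimmed reads with cutadapt 2.5, aligned them with STAR 2.7.2b to Bter_1.0 and counted them on exons by strand with featureCounts 1.6.4. The deposited values are estimated counts without normalization, in which reads matching several places were counted as fractions, so that 28.5% are not whole. They were rounded, filtered with filterByExpr and scaled by TMM, and edgeR 4.0.16 in R 4.3.3 fitted its quasi-likelihood model across all genes. A call needed an adjusted p (Benjamini-Hochberg) below 0.05 and a log2 change of 0.5 or more either way. Log2 CPM used a prior count of 2. The test takes bees as independent, and p-values measure the spread between bees, which share sites: limma 3.58.1 estimated a correlation of 0.105 between bees of a site over all genes in the belt model and 0.23 for ID-2, and 0.125 and 0.61 in the sampling temperature model. No 2 bees had identical counts. Grazing and sampling temperature came from the sample tables of the study. ID-2, the lists and the tests were chosen with earlier results of these data known. Named genes were the 5 highest and 5 lowest correlations, 2 neighbours on each side, called list members, the 3 most abundant of each list and the 2 most abundant of each marker list. The 4 BMP and TGF-beta ligands and the achaete-scute, enhancer of split, titin, vitellogenin, hexamerin, other gut-type score, trypsin 3A1 and LOC100651250 genes were named outside this rule, after their values were seen. So were the farther neighbours LOC100652042, LOC100651130, LOC100651602 and LOC110119455. Names covered 17.6% of the genes. Alternatives included DESeq2 1.42.0, and the scripts were tested on simulated data.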

Additional observations from a re-analysis of the deposited data

Results flagged for a closer look

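Among 18 groups of 4 to 10 bees (15 sites and 3 lowland groups of equal grazing and sampling class), 2 held a bee far from the others on the log2 scale by Dixon's criterion, of which about 1 in 20 groups is expected to show one by chance. At the grazed mid-elevation site Wma2, bee 1 had 85.1 CPM of ID-2, and the next lowest bee of that site had 148 CPM. At the grazed mid-elevation site Wmb2, bee 3 had 32.8 CPM, and the next lowest bee had 129 CPM.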

How the results depend on the processing

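Grazed minus ungrazed stayed negative under all 12 other settings (-0.87 to -0.69) and all 16 fits that left out a site (-0.96 without T5 to -0.72 without T3). The gene was chosen on this contrast in the same bees, so the kept sign is a description and supports nothing. With the gut-type score as a covariate, highland minus lowland turned from 0.25 to -0.099 and mid-elevation minus lowland at grazed sites from 0.08 to -0.051. With grazing as a covariate, highland minus mid-elevation turned to -0.036 and mid-elevation minus lowland to 0.058. With a site left out, highland minus lowland lay between 0.07 and 0.53, highland minus mid-elevation between 0.51 and 0.82, mid-elevation minus lowland between -0.55 and -0.16, highland minus lowland at ungrazed sites between -0.34 and 0.41 (turned in 5 of 7 fits), mid-elevation minus lowland at grazed sites between 0.002 and 0.16, warm minus cool between -0.16 and 0.74, and the F of sites between 0.87 and 2.03. No tested contrast of ID-2 became called in any of these fits, which says little about contrasts that were never called. The causes of these turns were not tested.

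Between bees of different sites, deviations from site means correlated at 0.03 for equal and -0.01 for unequal bee numbers. Of the 77 bees numbered 1 to 5, 25 correlated best with their own number, which was 1 of the 5 numbers compared for each bee. Whether a bee number marks something shared across sites was not tested. With the bee number as a block, ID-2 was at -0.85 for grazing, 0.22 for highland minus lowland and 0.40 for warm minus cool, and no call of ID-2 changed in the tested contrasts. Calls over all genes went from 20 to 90 for highland minus mid-elevation, from 65 to 98 for highland minus lowland, from 35 to 16 for mid-elevation minus lowland, from 68 to 188 at ungrazed sites, from 13 to 0 at grazed sites (1406 genes at an unadjusted p under 0.05), from 378 to 208 for warm minus cool and from 17 to 19 for grazing.

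Counts of called genes depended strongly on the setting. Over all settings they ran from 0 to 79 for grazing (main value 17), from 0 to 248 for highland minus lowland (65), from 0 to 169 for highland minus mid-elevation (20), from 0 to 168 for mid-elevation minus lowland (35), from 0 to 914 at ungrazed sites (68), from 0 to 338 at grazed sites (13), from 0 to 831 for warm minus cool (378) and from 200 to 1201 for sites (973). Limma with site as a random block called 0 genes in all 7 contrasts of groups, where 478 to 1388 genes had an unadjusted p under 0.05. For activin receptor type-2B, the sampling temperature call was lost in 5 of 6 fits without a site, and for notch homolog protein 1 in 4 of 6. Of the 5 genes most like ID-2, 4 stayed among the first 5 by Spearman and 3 after centring by site, and of the 5 least like, 2 and 0.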
